A study of Bos taurus with 18 samples.

Results

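The pair bta-miR-320a and bta-miR-484 was followed in small RNA libraries of bovine rumen papillae. These are the 2 names, of 966 miRNA names in the library files and 824 miRNAs after names of the same miRNA were merged, that were taken as miRNAs made from capped precursors without Drosha. Both were selected on their read counts, because they were higher on grain than on forage, so those values are given below as a description and carry no test. The study sampled papillae, the finger-like projections of the rumen wall, from 9 Holstein cows with a rumen cannula and not in milk, first while they ate forage alone (FD) and later on grain (HG), with 65% concentrate in the diet. In the order used here the groups are HG_PHY (grain, supplement labelled PHY, 4 libraries), HG_CON (grain, control, 5 libraries), FD_PHY (forage, PHY arm, 4 libraries) and FD_CON (forage, control, 5 libraries). What PHY stands for, the age of the cows and whether the supplement was already given on forage are not stated in the sources used here. Forage always came first, so the effects of diet and of time cannot be told apart. Each diet has as many libraries as there were cows, and the labels do not tie a library to a cow.

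Most miRNAs are cut first by the nuclear enzyme Drosha, which frees a hairpin from a long transcript, and then by the cytoplasmic enzyme Dicer, which trims the hairpin to a short duplex. In other mammals, miR-320 and miR-484 skip the first cut: a short transcript that begins at the hairpin itself keeps the cap of RNA polymerase II transcripts and goes to Dicer directly. In mouse and human cells the capped miR-320 hairpin leaves the nucleus through exportin 1, and the strand of the 3′ arm is the one loaded into Argonaute. The human gene of miR-484 lies at the promoter of NDE1, a gene for a centrosome protein.

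In the library files miR-320a was placed on chromosomes 20 and 8, and miR-484 on chromosome 25. The mature position spanned 22 nt for both. In the RefSeq table of bovine genes (assembly ARS-UCD2.0), MIR320A-1 on chromosome 8 is the neighbour of POLR3D, which codes for a subunit of RNA polymerase III. MIR320A-2 on chromosome 20 lies inside RNF180, a ubiquitin ligase gene, and MIR484 on chromosome 25 lies between MARF1 and NDE1. No source used here names the genome build of the library files, so positions are stated by chromosome only.

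The reads of miR-320a were listed under several names and places, and those of miR-484 under 1 name and 1 place. The raw read count of miR-320a was 2.996 to 3 times the count that the authors adjusted for multiple mapping, and that of miR-484 was 2 times its adjusted count in every library. Which other place the reads of miR-484 were divided with could not be worked out, so its counts may include reads from a place other than chromosome 25. hsa-miR-320a-3p, the human name for the same strand, held the same reads: in 12 of 18 libraries the 2 counts were equal, and elsewhere they differed by at most 18 reads. The places of miR-320a therefore cannot be told apart in these counts. bta-miR-320b, on chromosome 4, had 47 reads in all, at most 8 in a library. It was seen in 12 of 18 libraries.

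The opposite arm of the miR-320a hairpin was almost without reads. hsa-miR-320a-5p had 30 reads over all libraries, against 503416 for the 3′ strand, a share of 0.00596% of both arms. It had 0 reads in 11 libraries, where a limit of 3 reads for a count of 0 gives a share of up to 0.00899% to 0.0197%, depending on the library, and the exact Clopper-Pearson upper bound (95%) is 0.0111% to 0.0242%. In the other 7 libraries it had 2 to 11 reads, or 0.00429% to 0.0489%. The highest Clopper-Pearson upper bound in any library was 0.0874%. Limits and bounds cover counting error only. The grain libraries held 7 of these reads and the forage libraries 23, of which 11 came from FD_PHY 2 alone.

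**Figure D1:**
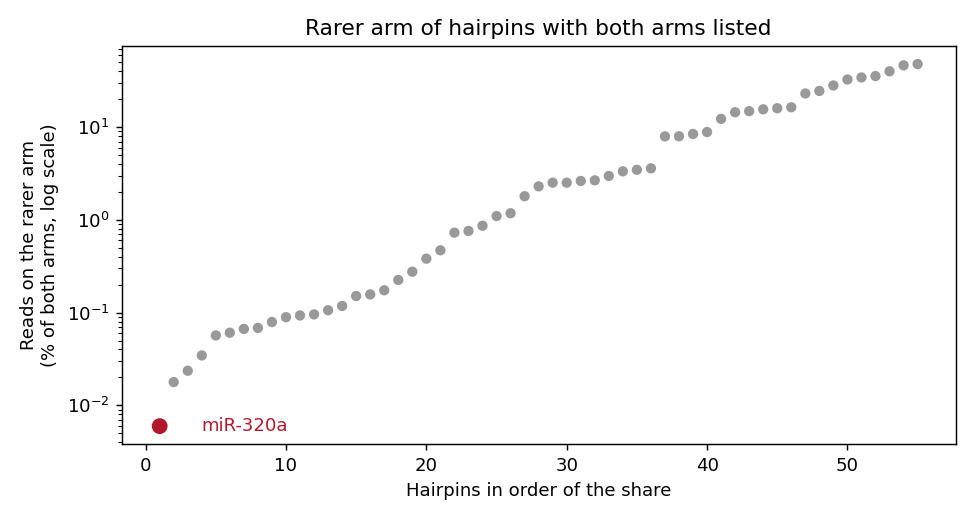
Share of reads on the rarer arm, in percent of both arms on a log scale, for the 55 hairpins with both arms listed and at least 10000 reads, in rising order. Each point is 1 hairpin summed over 18 libraries, and miR-320a (red) is the lowest at 0.00596%.

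Over the 55 hairpins that had both arms listed and at least 10000 reads, the rarer arm held a median of 2.3% of the reads (quartiles 0.134% and 13.4%). miR-320a had the smallest share of the 55. The next were miR-21 (0.0178%), let-7g (0.0236%) and miR-19a (0.0345%), and 12 of the 55 lay under 0.1%. The rarer arm was the 5′ arm in 24 hairpins and the 3′ arm in 31. The diet values played no part in this comparison, but reads that fit several names are counted for each, and the 5′ arm of miR-320a was listed under the human name at a single place. A hairpin with 1 listed arm, such as that of miR-484, could not be included. The values are shares of reads. Whether the library preparation recovers a 5′ strand that keeps a cap as well as other strands was not tested.

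On forage and on grain, miR-320a was an abundant miRNA. Its level, in CPM (counts relative to a library total scaled by edgeR's trimmed mean of M-values, TMM), was 3448, 3847, 3181 and 3626 in the HG_PHY libraries and 3322, 3128, 2639, 4037 and 3160 in the HG_CON libraries. It was 2233, 2343, 2252 and 3041 CPM in the FD_PHY libraries and 2806, 2377, 2600, 2726 and 2401 CPM in the FD_CON libraries. In the PHY arm every grain library lay above every forage library, and in the control arm 4 of 5 grain libraries did, HG_CON 3 being the exception. The highest forage value was that of FD_PHY 4, which stood well above the other 3 libraries of its group.

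miR-484 was less abundant than miR-320a in every library. Its level was 417, 427, 331 and 382 CPM in the HG_PHY libraries and 390, 302, 294, 390 and 341 CPM in the HG_CON libraries. It was 324, 314, 292 and 319 CPM in the FD_PHY libraries and 291, 262, 309, 271 and 348 CPM in the FD_CON libraries. The PHY groups did not overlap for this miRNA either, although the gap between HG_PHY 3 and FD_PHY 1 was narrow. In the control arm 2 of 5 grain libraries lay above all 5 forage libraries.

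**Figure D2:**
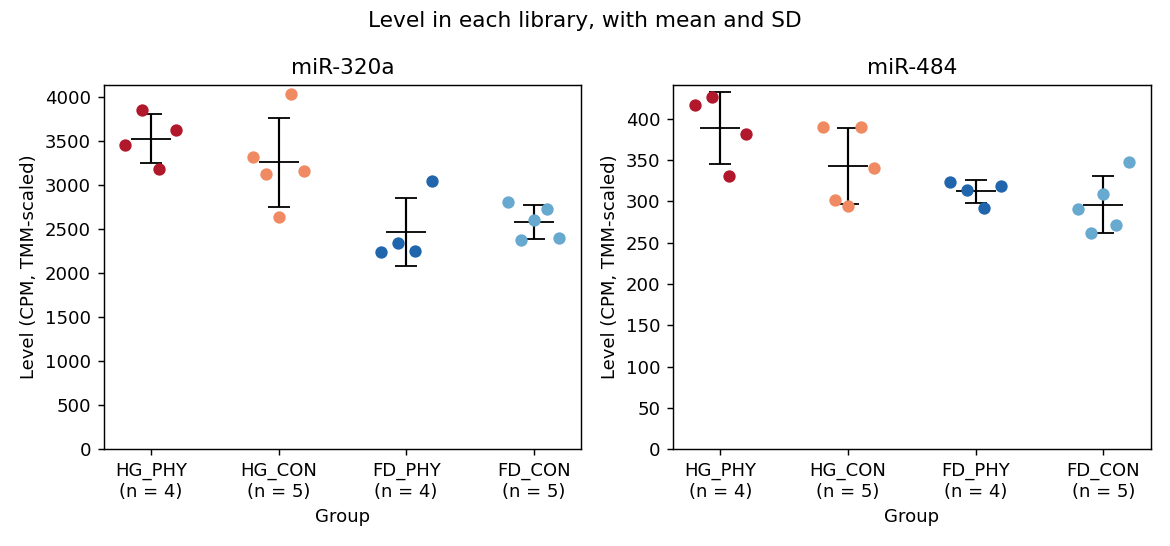
Level of miR-320a (left) and miR-484 (right) in each library, in CPM scaled by TMM, for HG_PHY, HG_CON, FD_PHY and FD_CON. Points are libraries and black bars the mean ± SD. Grain libraries of the PHY arm lie above its forage libraries in both panels, at 3181 to 3847 CPM against 2233 to 3041 CPM for miR-320a.

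By these values the 2 miRNAs were chosen. miR-320a averaged 3377 ± 421 CPM on grain and 2531 ± 279 CPM on forage (SD, n = 9 each), and miR-484 averaged 364 ± 48.5 CPM on grain and 303 ± 26.8 CPM on forage. The fitted log2 change from the edgeR model was 0.43 ± 0.09 (SE) for miR-320a and 0.27 ± 0.09 for miR-484, or 1.34-fold and 1.2-fold. They came 37th and 71st of the 468 miRNAs tested in order of log2 change, and the median over all 468 was -0.01. For comparison, 2.99% of the 468 miRNAs had every HG_PHY library above every FD_PHY library, and 0.641% had every HG_CON library above every FD_CON library. In the edgeR fit of both arms together, 0.214% of the 468 miRNAs (1 miRNA) had an adjusted p under 0.05, a count that ran from 0 to 12 under other settings. As the choice of the pair used that contrast, nothing is read from these counts.

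The changes were also computed without the largest miRNAs. The muscle markers, led by miR-143, took between 102598 and 133020 CPM in grain libraries and between 129258 and 297884 CPM in forage libraries, with the highest sum in FD_CON. With the 5 most abundant miRNAs, miR-143 among them, left out of the counts, the log2 change was 0.42 for miR-320a and 0.26 for miR-484. This fit was scaled by TMM too, a trimmed mean that gives a few large miRNAs little weight. It is therefore no test of the part of muscle content. As a plain share of all miRNA reads, miR-320a held 0.350% ± 0.0399 on grain and 0.244% ± 0.0286 on forage (SD, n = 9 each). The share of miR-484 was 0.0379% ± 0.00545 on grain and 0.0293% ± 0.00393 on forage. With the library total alone as scale, the log2 change was 0.52 for miR-320a and 0.37 for miR-484. The median over all 468 miRNAs was then 0.09, against -0.01 with TMM, so the plain shares carry a shift common to many miRNAs. In tissue made of several cell types, more cells of a type and more of a miRNA per cell cannot be told apart.

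By mean level over the 18 libraries, miR-320a was 41st and miR-484 113th of the 468. Within a library, miR-320a ranged from 36th to 46th place on grain and from 39th to 49th on forage, and miR-484 from 103rd to 117th on grain and from 110th to 125th on forage. The neighbours in level differed from miR-320a and miR-484 by less than the SD of these 2 between libraries. miR-429, an epithelial miRNA, lay just above miR-320a (3050 ± 375 against 2954 ± 556 CPM, SD, n = 18), and miR-151-5p just below it (2862 ± 242 CPM). miR-183, of a cluster known from sensory and epithelial cells, lay just above miR-484 (340 ± 60.6 against 334 ± 49.1 CPM), and miR-107, a relative of miR-103, just below it (302 ± 20.1 CPM).

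Both miRNAs were among the steadier ones between cows. The SD of the log2 level within groups was 0.17 for miR-320a and 0.16 for miR-484, against a median of 0.40 over the 468 miRNAs tested. Levels of abundant miRNAs vary less, and among the 50 miRNAs nearest in level the median SD was 0.23 for those around miR-320a and 0.25 for those around miR-484. Of these 50, 10 were steadier than miR-320a and 7 steadier than miR-484.

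The ratio of the read counts of miR-320a and miR-484 had a smaller SD on grain than on forage, a difference that was not tested. Its values ran from 8.27 to 10.35 on grain, with a mean of 9.32 ± 0.724, and from 6.89 to 10.05 on forage, with a mean of 8.41 ± 1.22 (SD, n = 9 each). The 2 diets overlapped over most of this range. The 3 lowest forage ratios of the PHY arm (6.89, 7.47 and 7.70) and that of FD_CON 5 (6.90) lay below every grain library. On the authors' adjusted counts the ratio ran from 4.6 to 6.9 over the 18 libraries. There the raw count was divided by 2.996 to 3 for miR-320a and by 2 for miR-484. These divisors do not match the numbers of places listed for the 2 names, so the adjusted ratio is not a ratio per place.

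The supplement arms were not used to choose the pair, so they were tested. On grain, miR-320a averaged 3526 ± 282 CPM in HG_PHY (SD, n = 4) and 3257 ± 505 CPM in HG_CON (SD, n = 5). The log2 difference was 0.11 ± 0.12 (SE), with a 95% interval of -0.15 to 0.37 and an adjusted p of 0.803 by edgeR's quasi-likelihood test over the 468 miRNAs. miR-484 averaged 389 ± 43.4 CPM in HG_PHY and 343 ± 46.2 CPM in HG_CON, a log2 difference of 0.18 ± 0.13 with an interval of -0.08 to 0.44 (edgeR adjusted p = 0.725). The groups overlapped for both miRNAs, with 2 of 4 HG_PHY libraries above all HG_CON libraries for miR-484 and 0 of 4 for miR-320a.

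On forage the arms overlapped as well. miR-320a averaged 2467 ± 385 CPM in FD_PHY (SD, n = 4) and 2582 ± 191 CPM in FD_CON (SD, n = 5), a log2 difference of -0.07 ± 0.13 with an interval of -0.33 to 0.20 (edgeR adjusted p = 0.929). Its sign turned to 0.07 when counts were scaled by the library total alone, a scaling that moved the median of all miRNAs to 0.12 in this comparison, and without FD_PHY 4 the difference was -0.17 ± 0.13 (edgeR adjusted p = 0.859). miR-484 averaged 312 ± 13.8 CPM in FD_PHY and 296 ± 34 CPM in FD_CON, a log2 difference of 0.07 ± 0.13 with an interval of -0.19 to 0.34 (edgeR adjusted p = 0.929).

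**Figure D3:**
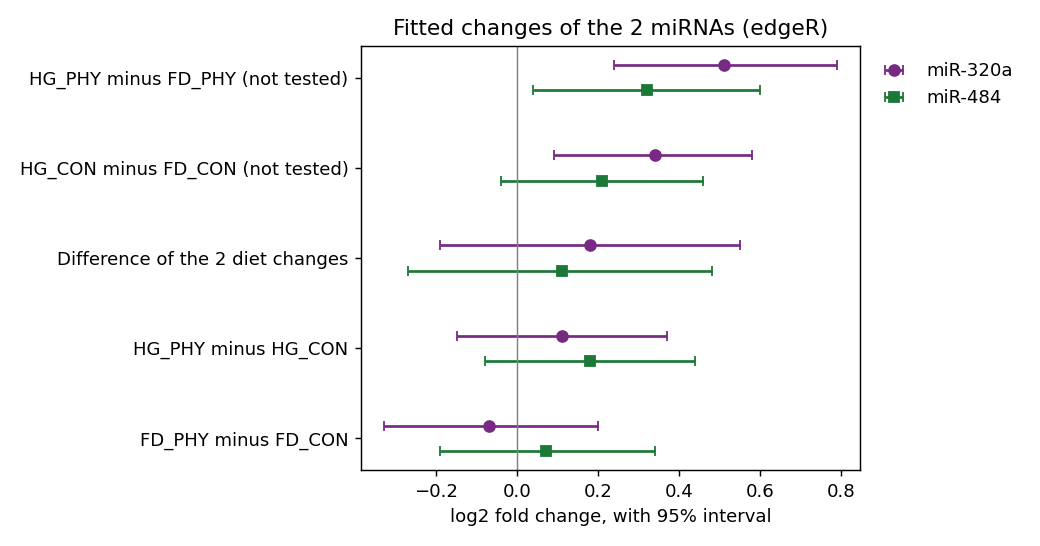
Fitted log2 fold changes from edgeR with 95% intervals for miR-320a (purple circles) and miR-484 (green squares). From top to bottom, the rows are the diet change in the PHY arm and in the control arm, which chose the pair and are not tested, the difference of these 2 changes, and PHY against CON on grain and on forage. The intervals of the 3 tested comparisons all span 0.

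The change with diet was larger in the PHY arm by the fitted values, but the difference was within its error. The log2 change of miR-320a was 0.51 ± 0.13 (SE) in PHY cows and 0.34 ± 0.12 in control cows, and that of miR-484 was 0.32 ± 0.13 in PHY cows and 0.21 ± 0.12 in control cows. The difference between arms was 0.18 ± 0.18 for miR-320a, with an interval of -0.19 to 0.55, and 0.11 ± 0.18 for miR-484, with an interval of -0.27 to 0.48 (edgeR adjusted p = 0.997 for each). Without FD_PHY 4 the difference for miR-320a was 0.30 ± 0.17 (edgeR adjusted p = 0.825). With the library total alone as scale, the difference was 0.02 for miR-320a, and for miR-484 the sign turned (-0.06). Of the 468 miRNAs, 0% had an adjusted p under 0.05 in edgeR in each of these 3 comparisons. At an unadjusted p under 0.05, edgeR had 32 miRNAs (6.84%) for PHY against CON on grain, 22 (4.7%) on forage and 10 (2.14%) for the difference between arms. In that order DESeq2 had 33, 26 and 12 at an unadjusted p under 0.05, and 2, 1 and 0 at an adjusted p under 0.05.

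In grain-fed cows the 2 miRNAs moved together from cow to cow. Over the 9 grain libraries the log2 levels of miR-320a and miR-484 had a Pearson r of 0.83 (exact permutation p = 0.0041, adjusted p = 0.025) and a Spearman rho of 0.80 (exact permutation p = 0.0138, adjusted p = 0.0347). The adjustment covers the 8 tests of this family, 2 measures for each of 2 diets with and without the arm means, all two-sided. Without HG_CON 3 and HG_CON 4, the 2 libraries farthest from the median of miR-320a, r was 0.84. With the arm means subtracted, r was 0.80 (exact permutation p = 0.00625 within arms, adjusted p = 0.025). Leaving out any 1 of the 9 libraries gave an r between 0.74 and 0.87, with an exact permutation p of up to 0.0401 before adjustment. How often other miRNAs reach such an r with either of the pair on grain was not computed. The relation is therefore not shown to be particular to these 2 miRNAs. Its link to the share of miRNA reads in a library was not tested either.

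Over the 9 forage libraries no such relation was seen. Pearson's r was -0.10 (exact permutation p = 0.793, adjusted p = 1) and Spearman's rho -0.18 (exact permutation p = 0.644, adjusted p = 1). With the arm means subtracted r was -0.02 (exact permutation p = 0.945, adjusted p = 1), and without FD_PHY 4 and FD_CON 1, the 2 libraries farthest from the median of miR-320a, it was -0.33. The sign depended on the scaling, since r was 0.40 with the library total alone and 0.11 on the authors' adjusted counts. The spread of the levels was somewhat narrower on forage, with an SD of the log2 level of 0.18 on grain and 0.15 on forage for miR-320a and of 0.20 on grain and 0.13 on forage for miR-484 (n = 9 each). Whether the correlations of the 2 diets differ was not tested.

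**Figure D4:**
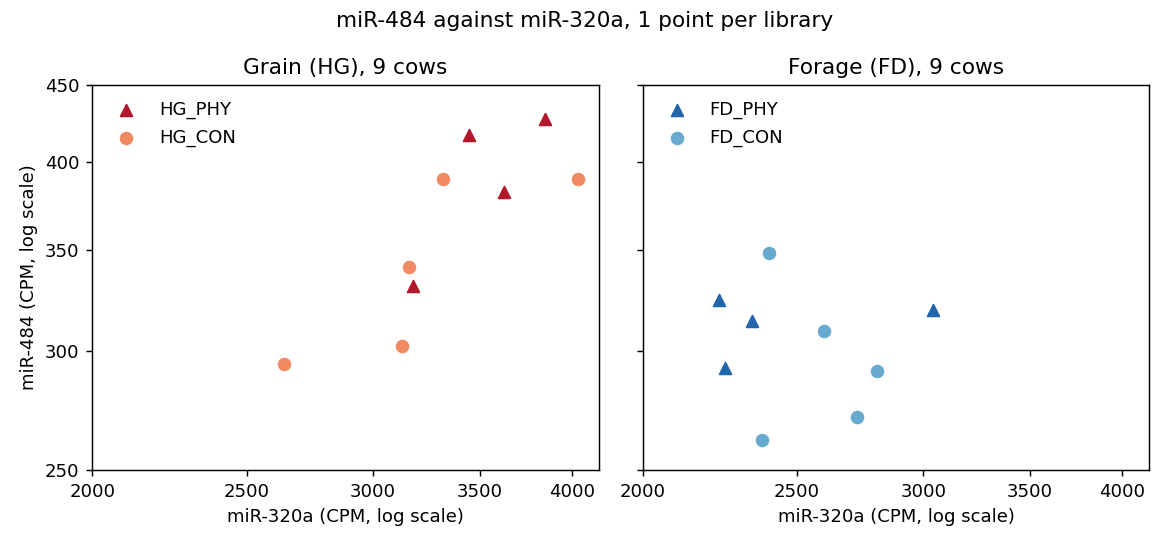
Level of miR-484 (vertical axis) against that of miR-320a (horizontal axis), both in CPM on log scales, with 1 point per library. On grain (left, r = 0.83) the 9 points run from low to high on both axes, and on forage (right, r = -0.10) they do not.

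Once group means were subtracted, several miRNAs had a higher r with either of the 2 than the 2 had with each other. On these values the log2 level of miR-320a had an r of 0.49 with miR-484 over the 18 libraries. Among 273 candidates that averaged 10 CPM or more, this put miR-484 in 17th place for miR-320a, and miR-320a in 34th place for miR-484. The 5 miRNAs most like miR-320a were miR-423-5p (r = 0.79), miR-2284y (0.70), miR-22-5p (0.65), miR-183 (0.64) and miR-98 (0.61). For miR-484 they were let-7i (0.85), miR-129-5p (0.81), miR-27a-3p (0.81), miR-221 (0.81) and miR-222 (0.80). These lists share no name. The median r over all candidates was 0.00 for miR-320a and -0.04 for miR-484. Without subtraction, which leaves the diet difference in, the r between miR-320a and miR-484 was 0.73. The 5 miRNAs named for miR-320a had 0.46 to 0.70, and those named for miR-484 had 0.33 to 0.82. The pair was picked for its diet difference, and the named miRNAs were ranked with group means subtracted. The order of these unsubtracted values therefore says nothing about likeness. The values come from the same libraries and the same scaling for every miRNA, and each cow gave libraries on both diets, so they are a description.

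Of these 10, the log2 change on grain was largest for miR-129-5p (0.53), a scarce miRNA with a mean of 13.4 CPM, followed by miR-183 (0.27), miR-98 (0.19) and miR-27a-3p (0.17). It was 0.07 for miR-423-5p, 0.09 for let-7i and miR-221 and -0.15 for miR-222, which shares a transcript with miR-221 in other mammals. None of these 10 had an adjusted p under 0.05 in edgeR, which only 1 of all 468 miRNAs (0.214%) had.

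Other routes around the usual pathway were looked at in a list of 16 miRNA numbers. It held miR-451, which is cut by Argonaute 2 in place of Dicer, 10 mirtrons, whose hairpins are released by splicing in place of Drosha, and 5 miRNAs from precursors like small nucleolar RNAs. Under these numbers the files listed 8 miRNAs, of which 6 were abundant enough to be tested. Of the 6, 0 passed the edgeR test for diet in either direction. Only 1 of all 468 (0.214%) passed it, so nothing is read from this count. The log2 change on grain was above 0 in 5 of 6, with a median of 0.19. Over all 468 miRNAs it was above 0 in 49.1%, with a median of -0.01.

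miR-451, which is abundant in red blood cells, was the most abundant of the list, at 9750 ± 4024 CPM on grain and 8350 ± 2458 CPM on forage (SD, n = 9 each). It exceeded the mean of the forage group in 5 of 9 HG libraries, with a log2 change of 0.20 ± 0.22 (SE; edgeR adjusted p = 0.791). miR-1839, one of those with a precursor like a small nucleolar RNA, stood at 293 ± 61.4 CPM on grain and 287 ± 35.5 CPM on forage, close in level to miR-484, and had a change of 0.03 ± 0.12 (edgeR adjusted p = 0.941). The snoRNA-like miR-664b stood at 16.8 ± 4.29 CPM on grain and 23.1 ± 8.47 CPM on forage, with 9 of 9 HG libraries under the mean of the FD group and a change of -0.42 ± 0.20 (edgeR adjusted p = 0.465). The highest forage value was 40.4 CPM in FD_CON 2.

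The mirtron miR-877, processed from an intron of ABCF1 in human cells, stood at 12.6 ± 4.27 CPM on grain and 11 ± 2.96 CPM on forage, with a change of 0.18 ± 0.19 (edgeR adjusted p = 0.791). On grain it had 15.1, 14.6, 13.8 and 20.6 CPM in HG_PHY libraries, against 11.9, 9.13, 11.1, 11.5 and 5.27 CPM in HG_CON libraries. These groups did not overlap, as was the case, in that direction, for 2.14% of the 468 miRNAs. The log2 difference was 0.72 ± 0.27 (edgeR adjusted p = 0.574), and its unadjusted edgeR p of 0.0143 was the only 1 under 0.05 among the 6 in the comparisons with PHY. Over all 468 miRNAs, 6.84% had an unadjusted p under 0.05 on grain and 4.7% on forage, so miR-877 is not singled out by it. miR-1248 (log2 change on grain 0.24 ± 0.27) and miR-1291 (0.23 ± 0.68) averaged 6.67 ± 2.98 and 1.01 ± 0.897 CPM on grain, against 5.9 ± 3.01 and 0.925 ± 0.842 CPM on forage. In the comparisons of PHY with CON, 0 of the 6 passed in edgeR, beside 0% of all 468. On grain 2 of 6 log2 differences were above 0 (median -0.15, against 0.00 over all 468) and on forage 2 of 6 (median -0.23, against -0.04). The difference of the diet changes between arms was above 0 in 5 of 6 (median 0.45, against 0.04), with SEs from 0.24 (miR-1839) to 1.37 (miR-1291). In edgeR 0 of the 6 passed for this difference, beside 0% of all 468. miR-1224 and miR-664a had 29 and 17 reads in all and were not tested.

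The libraries held between 5.74 and 15.2 M miRNA reads counted once per miRNA, 27.1% to 48.7% of all reads. The median of that share was 33.1% on grain and 33.5% on forage. The raw read count behind the values ran from 15265 to 46576 for miR-320a and from 2004 to 4909 for miR-484. Markers of stratified epithelium, with 7 of 8 listed and miR-203 not analysed here, summed to between 50196 and 69565 CPM on grain and between 52552 and 71558 CPM on forage, and 5 of 7 had a log2 change above 0. Muscle markers were below 0 in 4 of 4 tested of 6 listed, fibroblast and mesenchymal markers in 5 of 5, endothelial markers in 3 of 3 and leukocyte markers in 6 of 8. Over all 468 miRNAs, 49.1% were above 0. Some markers are arms of the same hairpin, such as those of miR-126 and of miR-199a, so these are not counts of independent miRNAs. Summed, the fibroblast markers came to between 6043 and 9571 CPM on grain and between 6712 and 10609 CPM on forage, the endothelial markers to between 9714 and 14386 CPM on grain and between 13316 and 16550 CPM on forage, and the leukocyte markers to between 5192 and 8150 CPM on grain and between 5838 and 8507 CPM on forage. Erythroid markers were above 0 in 3 of 3 and summed to between 6415 and 18351 CPM on grain and between 6404 and 14198 CPM on forage. In edgeR 0 of these markers passed in the diet comparison, beside 1 of all 468 miRNAs (0.214%). In all HG_PHY libraries 1 muscle marker was at 0. Their part in the levels of miR-320a and miR-484 was not tested.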

How the data were processed

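Libraries of papilla RNA (NucleoSpin miRNA kit) were prepared with the NETflex kit for small RNA, per the labels' protocols. Of tools, bcl2fastq 2.20 and DESeq2 are named in the submitters' processing notes, with no role. Aligner, counter, genome build and annotation were not given in any source used here. As described per the file headers, the deposited files give per name a raw read count, a number of unique reads, an expected count adjusted by the authors for multiple mapping, and RPM of all reads, used here only to find read totals. The authors' normalized table was not used.

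Where positions overlapped by 15 nt or more, or where bovine and human entries of one miRNA had totals within 5%, names were merged, and the name with the highest total was kept, a member always under its own name. Raw counts of 18 libraries were fitted with edgeR 4.0.16 (R 4.3.3; filterByExpr, TMM, quasi-likelihood test, a mean per group, no term for the cow), with Benjamini-Hochberg adjustment over 468 miRNAs and a threshold of 0.05, two-sided. P-values of the diet comparison and of the difference between arms treat 18 libraries from 9 cows as independent. Intervals are at 95%. The edgeR fit was tested on simulated data for the diet comparison only, with libraries drawn independently. It called 84.7% of miRNAs with a log2 change of 1 in size, 100% of those with 2 and 3.46% of the unchanged ones. The comparisons between arms and smaller changes were not simulated. Alternatives used DESeq2 1.42.0 and limma 3.58.1, adjusted counts rounded to whole numbers, other scalings and filters, and fits without each library. Correlations used exact permutation over all 362880 pairings of 9 libraries (scipy 1.17.1), or within arms. Likeness used log2(CPM + 0.5). The miRNAs named were the pair, other names of the same families, the list of non-canonical miRNAs, the 5 most alike and the neighbours in level. Markers served as context. The pair, the lists and the tests were chosen with earlier results of these data known.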

Additional observations from a re-analysis of the deposited data

Results flagged for a closer look

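Among the 12 sets of values examined (the levels of miR-320a and miR-484 and their ratio in each of the 4 groups), 1 library stood apart from its group. FD_PHY 4 had a miR-320a level of 3041 CPM, while the other 3 libraries of FD_PHY lay between 2233 and 2343 CPM. The gap to the nearest of them was 0.86 of the range of the group, above Dixon's 95% critical value of 0.829 for 4 samples. Chance passes that value in about 1 group in 20. The same library had 319 CPM of miR-484, within the range of its group.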

How the results depend on the processing

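The log2 change of miR-320a on grain lay between 0.38 and 0.48 with 1 library left out and between 0.40 and 0.52 under the other settings, and that of miR-484 between 0.22 and 0.31 and between 0.24 and 0.37. The number of miRNAs called for diet over both arms, 1 in edgeR, was 12 with DESeq2, 4 with the replicate block, 3 with no filter, 2 with the library total alone or with every name as its own feature, and 0 with upper-quartile scaling, without the 5 most abundant miRNAs, with at least 10 CPM in 4 libraries and on the adjusted counts. With 1 library left out it ran from 0 to 3, 2 without FD_PHY 4 and 3 without HG_CON 3. For PHY against CON the count was 0. It was 1 on forage with DESeq2, with no filter and without FD_CON 4, and 2 on grain with DESeq2 and without HG_CON 4, neither miR-320a nor miR-484 being called. No alternative called a miRNA for the difference between arms, in edgeR or in DESeq2, beside 10 and 12 at an unadjusted p under 0.05. Scaling by the library total moved the median of all miRNAs to 0.09 for diet over both arms. It moved it to 0.12 for PHY against CON on forage and to -0.14 for the difference between arms. Under it the difference of miR-320a on forage turned to 0.07 and the difference between arms of miR-484 to -0.06.

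With 1 library left out, the log2 difference between PHY and CON on forage ran from -0.17 to -0.00 for miR-320a and from 0.03 to 0.14 for miR-484. On grain it ran from 0.04 to 0.20 for miR-320a and from 0.10 to 0.28 for miR-484. The difference of the diet changes between arms ran from 0.09 to 0.30 for miR-320a and from 0.03 to 0.20 for miR-484. The grain correlation of the pair lay between 0.82 and 0.84 under other scalings. The forage correlation turned to 0.40 with the library total alone, 0.05 with DESeq2 size factors and 0.11 on adjusted counts, and ran from -0.34 to 0.03 with 1 library left out. The cause was not tested. The labels do not say that a replicate number marks a cow. Of 9 same-numbered pairs, 5 had a correlation of their deviations over 0.1 (range 0.00 to 0.41) and 4 grain libraries correlated best with their own number. The consensus correlation of same-numbered libraries was 0.232 (limma-voom). What chance would give was not computed, so these values do not settle whether a number marks a cow. Because the labels do not state it, the block is given as an alternative only. With the replicate block the log2 change on grain was 0.42 for miR-320a and 0.26 for miR-484, the differences on forage -0.07 and 0.08 and on grain 0.12 and 0.19 (limma-voom), and the difference between arms 0.20 and 0.10.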
